A study of Mus musculus with 18 samples.

Results

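The cytosolic ribosomal proteins are the protein subunits of the ribosomes that translate most cellular mRNAs. They were followed here as 59 of the 19057 genes measured by array in C2C12 myotubes. A gene was taken as a member when its symbol in the annotation of the array's probes was Rpl or Rps followed by a number, with at most a trailing a, l or x, or was Rplp0, Rplp1, Rplp2 or Rpsa. S6 kinases, genes marked as pseudogenes and Rps19bp1 were left out. The choice used symbols only and no measured value, and each gene stands for its brightest probe by mean log2 intensity over the 18 arrays. Of the members, 35 belong to the large subunit (60S) and 24 to the small subunit (40S). The mouse annotation used here (RefSeq, GRCm38.p6) holds 81 protein-coding genes whose symbols meet the same rule, and 58 of them had a probe among those analysed here. The other 23, among them Rpl5, Rpl10, Rpl11, Rpl8, Rps18, Rps27 and Rps27a, had none under that symbol, and the remaining member, Rps4l, is listed there as a transcribed pseudogene.

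C2C12 is an established mouse myoblast line whose cells fuse into muscle fibre-like myotubes in medium low in serum. The myotubes of all 4 groups were kept in medium with 2% horse serum. They received 1 μM Dex (dexamethasone, a synthetic glucocorticoid) for 6 h (n = 4), ethanol for 6 h (n = 4), Dex for 24 h (n = 5) or ethanol for 24 h (n = 5). Ethanol, the vehicle, made up 0.01% of the medium volume. According to its title the series concerns target genes of the glucocorticoid receptor, so each comparison asks what Dex did to the members' mRNA levels at that time. The series' design describes triplicates, but sample numbers run to 4 or 5, and every numbered sample was used. Separate cultures are not stated for the replicates, so p-values measure the spread between these samples only, which may be technical. All values come from 1 cell line.

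A ribosome holds each core ribosomal protein in single copy, apart from the stalk proteins, and cells make the subunits in matched amounts. Most of these genes share a promoter type and begin their mRNAs with a stretch of pyrimidines, the terminal oligopyrimidine (TOP) tract. The protein Larp1 and the kinase complex mTORC1 act on this tract to control how strongly the mRNAs are translated. In muscle, ribosome content follows growth and wasting, and glucocorticoids are known for promoting the wasting of muscle. The arrays measured mRNA levels and not translation.

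Promoter windows were available from RefSeq (GRCm38.p6) for 48 members, as 58 windows of 300 bases each, with 250 before and 50 after the annotated start. The sequences that follow are shown because their genes carry the calls described further on, and because they differ in the run of C and T at the annotated start. Each gives 30 bases 5′ to 3′ on the gene's strand, centred on the annotated start, and capitals mark the unbroken run of C and T that passes through the start where it has 5 or more letters. A sequence without capitals can hold such a run beside the start, as those of Rpl4 (11 letters) and Rps12 (7 letters) do.
Rpl7a, chr2:26910792-26910821, plus strand: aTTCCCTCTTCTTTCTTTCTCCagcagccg
Rps6, chr4:86857353-86857382, minus strand: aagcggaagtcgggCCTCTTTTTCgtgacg
Rpl31, chr1:39367836-39367865, plus strand: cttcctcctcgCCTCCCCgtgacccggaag
Rpl4, chr9:64173372-64173401, plus strand: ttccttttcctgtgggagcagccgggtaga
Rps3, chr7:99483695-99483724, minus strand: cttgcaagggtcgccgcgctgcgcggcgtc
Rps12, chr10:23787195-23787224, minus strand: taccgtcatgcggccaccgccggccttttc
Rpl3l, chr17:24727811-24727840, plus strand: gagtgttctagctctgtcatttgacctctg

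A run of at least 5 pyrimidines passed through the annotated start in 16 of the 58 windows (27.6%), against 10.1% of all 32851 windows of the table. A start at C followed by 4 pyrimidines was found in 15.52% of the members' windows and 2.51% of all windows. An annotated start can lie some bases from the start used in a cell, and a run of at least 7 pyrimidines within 15 bases of it was present in 48.3% of the members' windows, against 18.6% of all. The letters CCGGAAG or CTTCCGG, bound by ETS factors, were in 39.7% of the members' windows and 8.86% of all. The letters AAGATGG or CCATCTT, bound by YY1, were in 12.1% of the members' windows and 6.34% of all. The consensus letters of the glucocorticoid response element were in 0 of the members' windows and in 0.475% of all. With so low a share, 0 among 58 windows does not set the members apart. Both strands were searched for each motif, the ETS letters can run into the YY1 letters, and a match describes the sequence only. Of the 15 members with a window that passed the test at either time, 4 had the run of 5, as did 12 of the 33 that did not pass. Rpl7a, Rps6 and Rpl31 are among the 4, and Rps29 and Rpl30 are not in the table.

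The median intensity of an array was 99.8 to 100.4 at 6 h but 85.2 to 86.8 at 24 h, so intensities were compared within a time. Myotube markers were present, with 12 of 12 measured at a mean log2 intensity of 7 or more. Their summed intensity was 232400 to 239200 in Dex and 229800 to 239600 in ethanol arrays at 6 h, and 178100 to 191600 in Dex and 166400 to 195200 in ethanol arrays at 24 h. Of the measured markers, 0 of 4 for adipocytes, 0 of 4 for osteoblasts, 0 of 3 for immune cells and 0 of 4 for endothelial cells reached 7, against 3 of 5 for cycling myoblasts. The receptor's known target Fkbp5 rose with Dex by 3.93 at 6 h and 3.40 at 24 h on the log2 scale, and the targets Tsc22d3 and Per1 rose at both times too. Deviations of single arrays from their group means were not independent. Over the 786 genes with a mean log2 intensity above 12, 3 of 8 possible directions of spread at 24 h held almost none of it. At 6 h 1 of 6 did. At 24 h arrays of both treatments with the same replicate number deviated in opposite ways (r from -0.928 to -0.19 over all genes). The model used here leaves this out, so its p-values at 24 h may be too small. It counts 14 residual degrees of freedom, against 10 in a fit that enters these missing directions as covariates for every gene. That fit, called the covariate fit from here on, is given beside the results because it ends many calls.

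Of the 59 members, 50 had a mean log2 intensity of 7 or more and 42 one above 12, where 786 of all genes lay. In 22 members a group mean passed an intensity of 20000, against array maxima of 32955.4 to 43518.6. Whether such bright probes were near saturation was not tested. The other 9 members, Rpl6, Rpl14, Rpl17, Rpl39l, Rps4l, Rps15a, Rps20, Rps23 and Rpsa, lay near the array medians, where a value is not shown to lie above background. In RNA from whole cultures, fewer cells of a kind and less RNA per cell cannot be told apart, and an array measures a gene relative to the others on it.

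After 6 h with Dex, 4 members fell and 1 rose. Rpl7a, Rps3, Rpl24 and Rps7 were lower, by log2 fold changes of -0.32 to -0.22, and Rpl4 was higher at 0.25. These 5 of 59 members make 8.47%, against 9.06% of all genes called in the same comparison (4.67% higher and 4.39% lower), a share near the background. Of all genes with a mean log2 intensity of 7 or more 16.8% were called, and 11.5% of those above 12. The median log2 fold change of the members was -0.04 (all genes 0.003), with 22 members above 0 (37.3%, against 51.2% of all genes) and 37 below. Among the 42 members above a mean log2 of 12, 13 lay above 0 (31%), against 54.8% of the 786 genes of that brightness. The groups did not overlap for 2 members that were higher and 5 that were lower with Dex, while 5.59% of all genes were higher and 5.31% lower in this way. Of all genes with a mean log2 intensity of 7 or more, 9.08% were higher and 7.72% lower in this way.

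**Figure D1:**
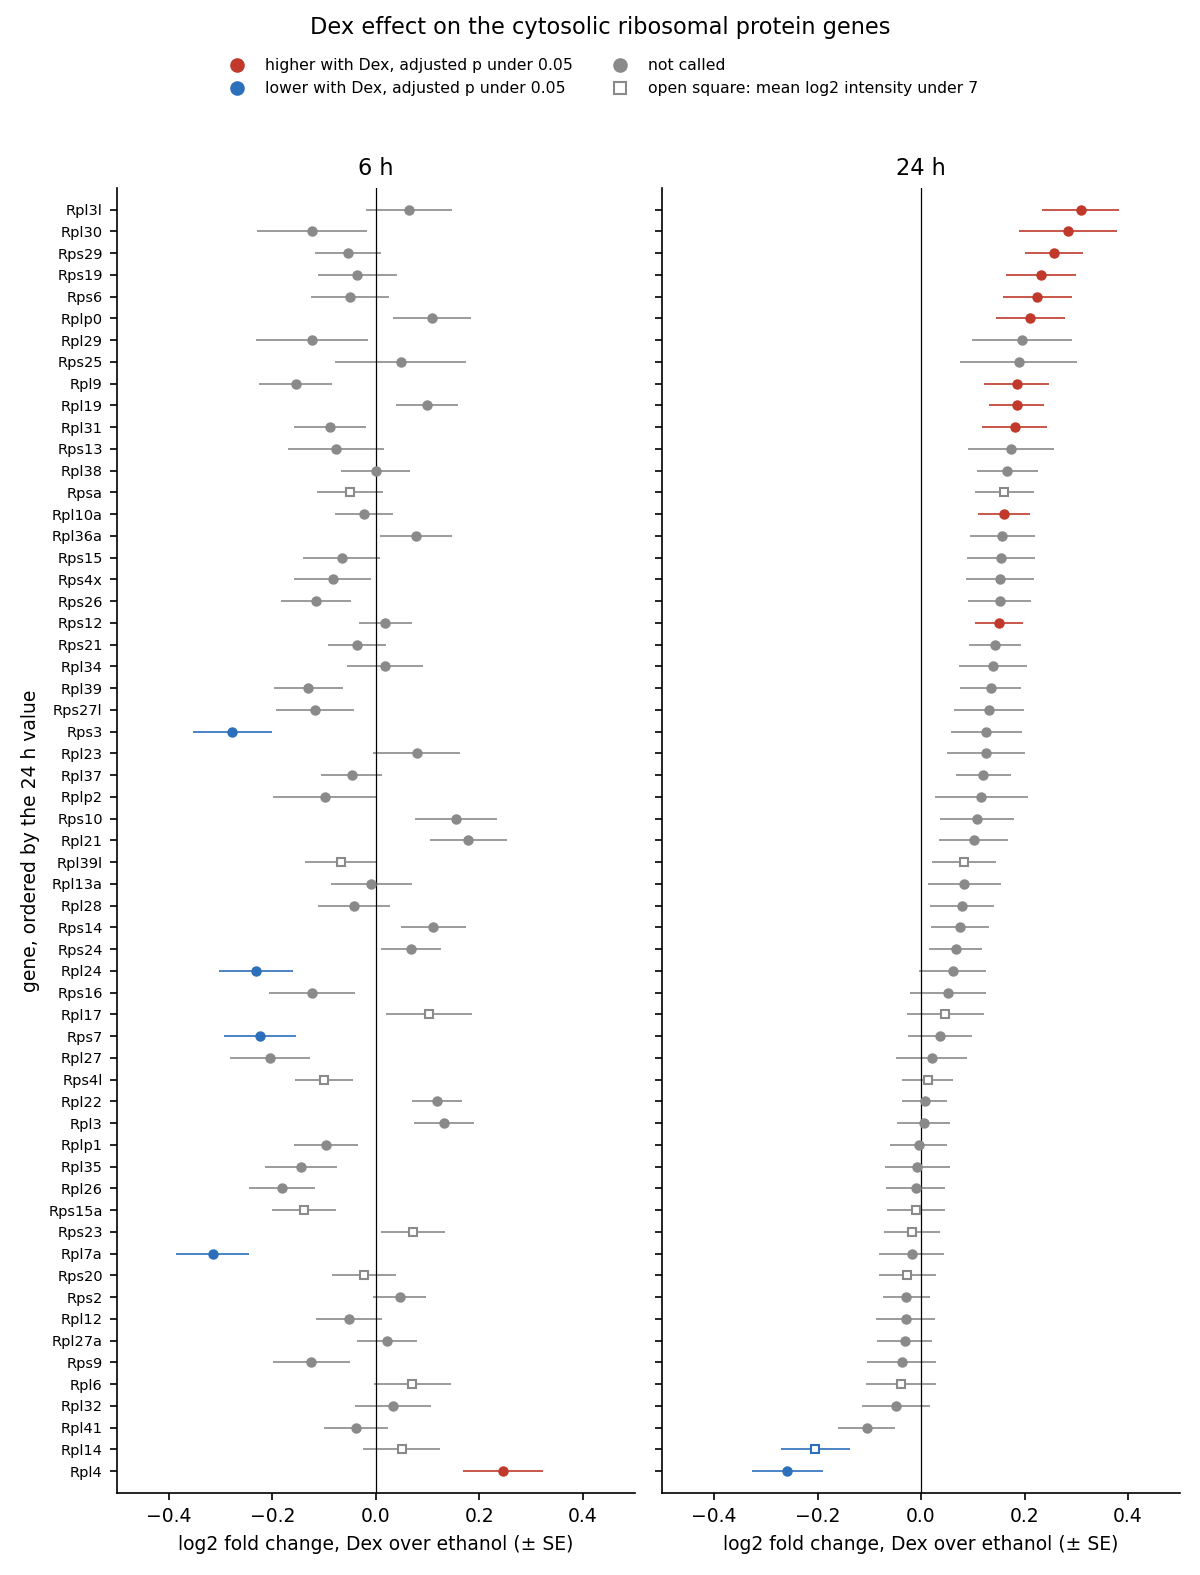
Log2 fold change, Dex over ethanol, with its standard error for each of the 59 members at 6 h (left) and at 24 h (right), ordered by the value at 24 h. Red marks members called higher and blue those called lower (adjusted p under 0.05), and open squares mark the 9 members with a mean log2 intensity under 7. At 6 h 37 of 59 values lie below 0, and at 24 h 43 lie above it.

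Rpl7a, a protein of the large subunit, had intensities of 3491.8, 4101, 3744.5 and 4238 in Dex arrays at 6 h, against 4515.5, 4702.3, 5010.9 and 5123.9 in ethanol arrays. Every Dex array lay below every ethanol array. The log2 fold change was -0.32 (SE 0.07, adjusted p = 0.00466), and the call held in the covariate fit (adjusted p = 0.0318). It also held in all 18 fits that left out 1 array, with adjusted p from 0.00237 to 0.0228.

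Rps3 sits at the entry of the mRNA channel of the small subunit and is also known as a DNA repair endonuclease. It read 5181.7, 5809.9, 6304.9 and 6888.9 in Dex arrays and 7064.4, 7147.7, 7608.5 and 7345.7 in ethanol arrays at 6 h. No Dex array reached an ethanol array, and the Dex arrays spread more widely (SD 726) than the ethanol arrays (SD 242). The log2 fold change was -0.28 (SE 0.08, adjusted p = 0.0226), but adjusted p = 0.0901 in the covariate fit. Without ethanol replicate 3, Dex replicate 1 or Dex replicate 2 the adjusted p was 0.0695, 0.0932 and 0.0638.

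Rps7, a small-subunit protein known for binding the p53 ligase Mdm2, had 14893, 17100.8, 16168 and 17250.3 in Dex arrays and 18311.2, 18554.9, 19286.2 and 20144 in ethanol arrays at 6 h. All Dex values were lower, with a log2 fold change of -0.22 (SE 0.07, adjusted p = 0.0445). Rpl24, whose loss of function causes the belly spot and tail phenotype in mice, had 7354.4, 9232.2, 7902.1 and 8863 in Dex arrays and 9069.8, 10981.4, 8781.4 and 10340.8 in ethanol arrays. The groups of Rpl24 overlapped, since Dex replicates 2 and 4 lay above the lowest ethanol array (log2 fold change -0.23, SE 0.07, adjusted p = 0.0461). In the covariate fit neither passed (adjusted p = 0.160 for Rps7 and 0.157 for Rpl24), and with 1 array left out Rps7 was called in 9 and Rpl24 in 4 of the 18 fits.

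Rpl4, which lines the tunnel through which the nascent chain leaves the large subunit, was the member that rose. It read 1818.2, 2141.9, 1915.5 and 2238.9 in Dex arrays and 1618.7, 1713.6, 1756.8 and 1733.2 in ethanol arrays at 6 h. Again the groups were apart (log2 fold change 0.25, SE 0.08, adjusted p = 0.0465). The call was kept in 5 of the 18 fits with 1 array left out and was lost in the covariate fit (adjusted p = 0.148). Rpl22 (0.12), Rpl39 (-0.13) and the pseudogene Rps4l (-0.10) also had groups apart at 6 h without passing the test (adjusted p = 0.146, 0.253 and 0.306). Just outside the threshold were the large-subunit members Rpl26 (-0.18, adjusted p = 0.0780) and Rpl27 (-0.20, adjusted p = 0.105). Rpl26, known in human cells for binding p53 mRNA, averaged 13270 ± 990 in Dex and 15040 ± 959 in ethanol arrays, and Rpl27 averaged 16290 ± 1703 in Dex and 18770 ± 2053 in ethanol arrays (SD, n = 4 each). The groups overlapped in both.

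The count of 5 at 6 h was 2 without any 1 of ethanol replicates 2, 3 or 4 or Dex replicates 1, 2 or 3 of that time, or without ethanol replicate 2 at 24 h. It was 3 without any other ethanol array at 24 h or without Dex replicate 3, 4 or 5 at 24 h. In all these fits 6.5% to 9.02% of all genes were called, against 9.06% with every array. The covariate fit called only Rpl7a, 1 of 59 members, against 4.46% of all genes.

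**Figure D2:**
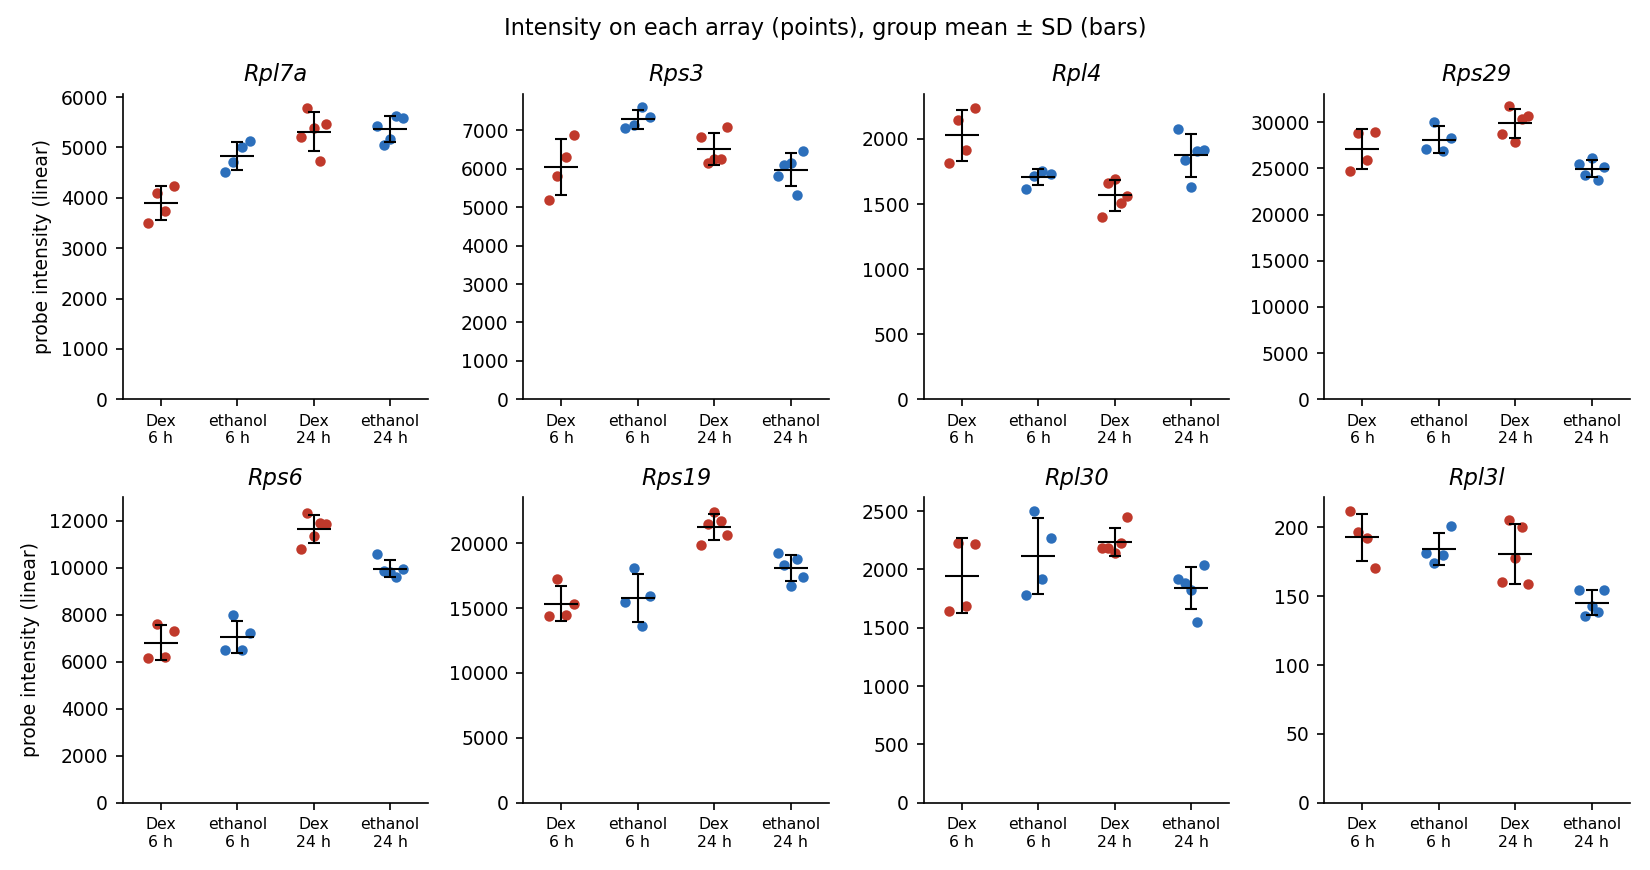
Linear probe intensity of 8 members on each array (points), with the group mean and SD (bars), in the order Dex and ethanol at 6 h, then Dex and ethanol at 24 h. At 6 h the Dex arrays of Rpl7a and Rps3 lie below the ethanol arrays and those of Rpl4 above them. At 24 h the Dex arrays of Rps29, Rps6, Rps19, Rpl30 and Rpl3l lie above the ethanol arrays.

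After 24 h with Dex, 11 members rose and 2 fell. The members that rose were Rpl3l, Rps29, Rpl30, Rps19, Rps6, Rplp0, Rpl9, Rpl19, Rpl31, Rpl10a and Rps12, by 0.15 to 0.31 on the log2 scale. Those that fell were Rpl4 (-0.26) and the dim Rpl14 (-0.20). The 13 called members make 22% of 59, against 16.5% of all genes, and 27.2% of all genes with a mean log2 intensity of 7 or more. By direction, 8.39% of all genes were called higher and 8.10% lower. Of the 42 members above a mean log2 of 12, 8 were called higher and 0 lower, 19% in all. Of the 786 genes of that brightness 24.2% were called, 94 higher and 96 lower.

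The members as a group lay slightly above their ethanol level at 24 h. Their median log2 fold change was 0.10 (all genes -6.27e-05), 43 lay above 0 (72.9%, while 9524 of all 19057 genes did) and 16 below, and their quartiles were -0.01 and 0.16. Among those above a mean log2 of 12, 32 of 42 lay above 0 (76.2%), against 49.4% of the 786 genes. The groups did not overlap for 14 members that were higher and 1 that was lower, while 8.42% of all genes were higher and 7.86% lower in this way. Of all genes with a mean log2 intensity of 7 or more, 13.0% were higher and 12.5% lower in this way. Of the 24 small-subunit members, 4 were called higher and 0 lower with a median of 0.13, and of the 35 large-subunit members, 7 and 2 with a median of 0.08. The difference between the subunits was not tested.

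**Figure D3:**
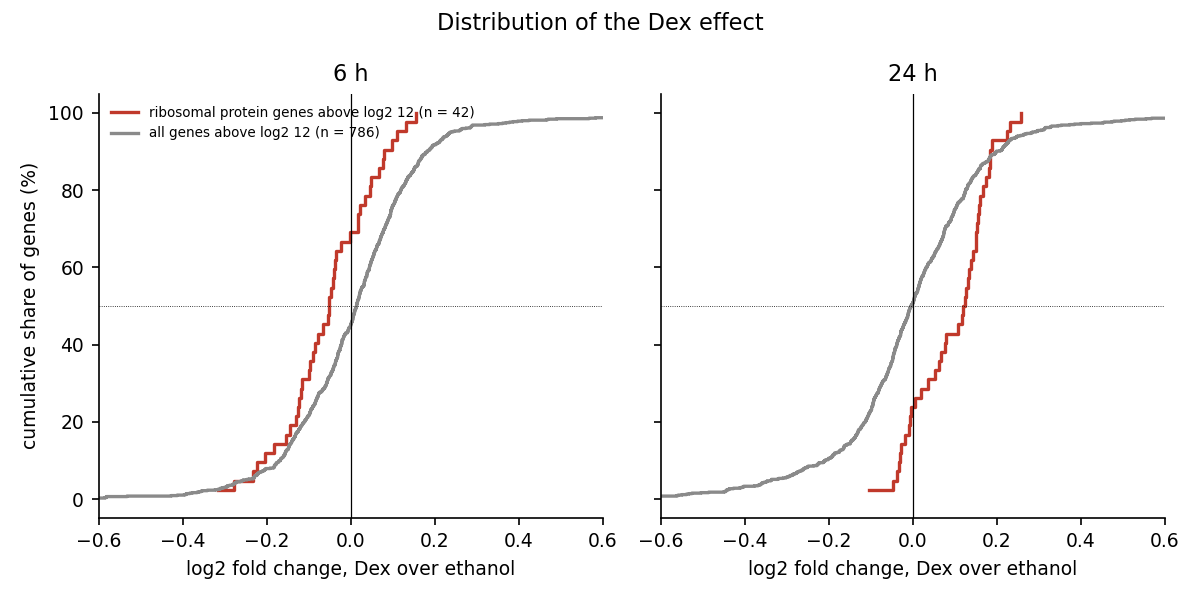
Cumulative share of genes (%) by log2 fold change, Dex over ethanol, at 6 h (left) and 24 h (right), for the 42 members (red) and all 786 genes (grey) with a mean log2 intensity above 12. The red line lies left of the grey one over most of its course at 6 h and right of it at 24 h, where it crosses the 50% line at 0.12 and the grey line at about 0.

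Rps29, a zinc-binding protein of the small subunit, showed the smallest adjusted p of any member at 24 h. It read 28685.7, 31742.3, 27830.5, 30358 and 30680 in Dex arrays, against 25478.3, 24316.9, 26173.6, 23740.4 and 25183.4 in ethanol arrays. Every Dex array lay above every ethanol array. The log2 fold change was 0.26 (SE 0.06, adjusted p = 0.0027, and adjusted p = 0.0226 in the covariate fit), and the adjusted p stayed between 0.00172 and 0.0107 with 1 array left out.

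Rpl3l, a paralogue of Rpl3 known as specific to heart and skeletal muscle, had intensities of 160.4, 205.6, 178.1, 200.6 and 158.7 in Dex arrays and 154.5, 135.5, 142.9, 138.7 and 154.7 in ethanol arrays at 24 h. The groups did not overlap, although Dex replicates 1 and 5 lay close to ethanol replicates 1 and 5. The log2 fold change was 0.31 (SE 0.07, adjusted p = 0.00566, and adjusted p = 0.0252 in the covariate fit), the largest among the members. Its intensity lay above the array median of about 86 but was low, and any background left in it makes the fold change smaller. Rpl3 itself read 25285, 27232.6, 26790.6, 24523.7 and 27205 in Dex arrays and 27083.7, 25623, 24733.7, 26416.3 and 26673.3 in ethanol arrays, and these overlapped (0.01, SE 0.05, adjusted p = 0.964). The difference between the paralogues was not tested.

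Rps6, the small-subunit protein that S6 kinases phosphorylate downstream of mTORC1, had 10803.7, 12320.4, 11354.3, 11911 and 11866 in Dex arrays and 10577.2, 9841.9, 9834.1, 9625.9 and 9945.4 in ethanol arrays at 24 h. All Dex values were higher, and the closest were the arrays numbered 1. The log2 fold change was 0.22 (SE 0.07, adjusted p = 0.0231, but adjusted p = 0.0830 in the covariate fit). Without ethanol replicate 2, ethanol replicate 4 or Dex replicate 2 the adjusted p was 0.0508, 0.0525 and 0.0615.

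Rps19, the gene most often mutated in human Diamond-Blackfan anaemia, had 19870.4, 21443.7, 22427.3, 21735.3 and 20646.2 in Dex arrays and 19216.2, 18307.9, 16718.3, 18798.3 and 17380.9 in ethanol arrays at 24 h. Each Dex array lay above each ethanol array (log2 fold change 0.23, SE 0.07, adjusted p = 0.0216, but adjusted p = 0.0775 in the covariate fit). Without ethanol replicate 3, ethanol replicate 5 or Dex replicate 3 the adjusted p was 0.0640, 0.0503 and 0.0592. Rpl30, a large-subunit protein that also binds the RNA element directing selenocysteine insertion, had 2179.9, 2183.2, 2141.2, 2229.2 and 2446.9 in Dex arrays and 1913.9, 1880.5, 1823.6, 1552.7 and 2037.3 in ethanol arrays. Again all Dex arrays were higher (log2 fold change 0.28, SE 0.09, adjusted p = 0.0432). Its call was kept in 9 of the 18 fits with 1 array left out and not in the covariate fit (adjusted p = 0.0992).

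The stalk of the large subunit, which recruits elongation factors, is made of Rplp0 and of dimers of Rplp1 and Rplp2. Rplp0, often used as a reference gene in PCR, had 1072.8, 1108.1, 1128.2, 1078 and 1052.5 in Dex arrays and 947, 928.9, 910.2, 1001.7 and 912.4 in ethanol arrays at 24 h. The groups did not overlap (0.21, SE 0.07, adjusted p = 0.0327, but adjusted p = 0.106 in the covariate fit). Rplp1 (-0.0047, adjusted p = 0.971) and Rplp2 (0.12, adjusted p = 0.424) did not pass at 24 h, and none of the 3 passed at 6 h.

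The other large-subunit members that rose at 24 h were Rpl9, Rpl19, Rpl31 and Rpl10a. Rpl9 averaged 28540 ± 1949 in Dex and 25090 ± 1324 in ethanol arrays (SD, n = 5 each, as for the following genes). Rpl19, which forms a bridge to the small subunit, averaged 6231 ± 258 in Dex and 5482 ± 237 in ethanol arrays. Rpl31, at the exit of the nascent chain tunnel, averaged 21830 ± 999 in Dex and 19260 ± 976 in ethanol arrays. The Dex mean was the higher one in each of these 3 genes. Rpl10a, which forms the L1 stalk, averaged 23780 ± 1188 in Dex and 21270 ± 1025 in ethanol arrays. Rps12 of the small subunit, known in Drosophila for its part in cell competition, averaged 30550 ± 1069 in Dex arrays and 27510 ± 930 in ethanol arrays. The log2 fold changes of these 5 members were 0.15 to 0.18, with adjusted p from 0.0204 (Rpl19) to 0.0487 (Rpl31), the member nearest to the threshold. Only Rpl31 had groups that overlapped. None of the 5 passed in the covariate fit (adjusted p from 0.0991 to 0.149), and with 1 array left out they were called in 7 (Rpl31) to 15 (Rpl19) of the 18 fits.

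Just outside the threshold at 24 h were Rps21 (0.14, adjusted p = 0.0546), Rpl38 (0.17, adjusted p = 0.0554) and Rpsa (0.16, adjusted p = 0.0556). Rpl38 is known in mice for the translation of Hox mRNAs, and Rpsa is also known as the laminin receptor. The Dex arrays of Rps21 (22037.9 to 23908.8) all lay above its ethanol arrays (19723.6 to 21943). In Rpl38 the lowest Dex array, 26326.3, lay below the highest ethanol array, 26605.6. Rpsa was dim, at 106 ± 5.02 in Dex and 95.1 ± 4.16 in ethanol arrays (SD, n = 5 each).

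Rpl4 was lower with Dex at 24 h, having been higher at 6 h. It read 1402.3, 1664.1, 1690.7, 1506.9 and 1564.2 in Dex arrays, against 2080, 1836.4, 1629.4, 1909.3 and 1916 in ethanol arrays. The groups overlapped, since ethanol replicate 3 lay below Dex replicates 2 and 3, and the lowest Dex and the highest ethanol array were both numbered 1. The log2 fold change was -0.26 (SE 0.07, adjusted p = 0.0114, and adjusted p = 0.0481 in the covariate fit). Without both arrays numbered 1 at 24 h the call was lost (adjusted p = 0.104). Rpl14 had 85.1, 81.1, 83.7, 77.6 and 93.3 in Dex arrays and 97.5, 99.4, 93.3, 91.3 and 102.7 in ethanol arrays, around the array median, so its log2 fold change of -0.20 (SE 0.07, adjusted p = 0.0382) describes a signal not shown to lie above background.

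The count of 13 at 24 h was 6 without ethanol replicate 2 or Dex replicate 2 of that time, 7 without ethanol replicate 4 or Dex replicate 4 or 5, and 8 without ethanol replicate 1 or Dex replicate 3. In these fits 12.4% to 14.2% of all genes were called, against 16.5% with every array. The covariate fit called Rpl3l, Rps29 and Rpl4, 3 of 59 members, against 8.89% of all genes.

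The members deviated together within groups, so they are not separate observations of the Dex effect. Over the 50 members with a mean log2 of 7 or more, the median correlation between members' deviations from their group means was 0.287 at 6 h (8 arrays) and 0.177 at 24 h (10 arrays), against 0.002 and 0.007 for all 786 genes above 12. On each array the median deviation of these 50 members from the mean of both groups at that time gives their shared level. At 24 h it was -0.001, 0.10, 0.02, 0.08 and 0.08 on the log2 scale in Dex arrays 1 to 5, and -0.01, -0.06, -0.04, -0.08 and -0.06 in ethanol arrays 1 to 5. The arrays of the 2 groups did not overlap, and the arrays numbered 1 lay close to each other. At 6 h it was -0.09, 0.04, -0.07 and 0.04 in Dex arrays and -0.02, 0.09, -0.03 and 0.005 in ethanol arrays, and these overlapped. Over the genes above 12 the same median stayed between -0.02 and 0.02 on every array.

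**Figure D4:**
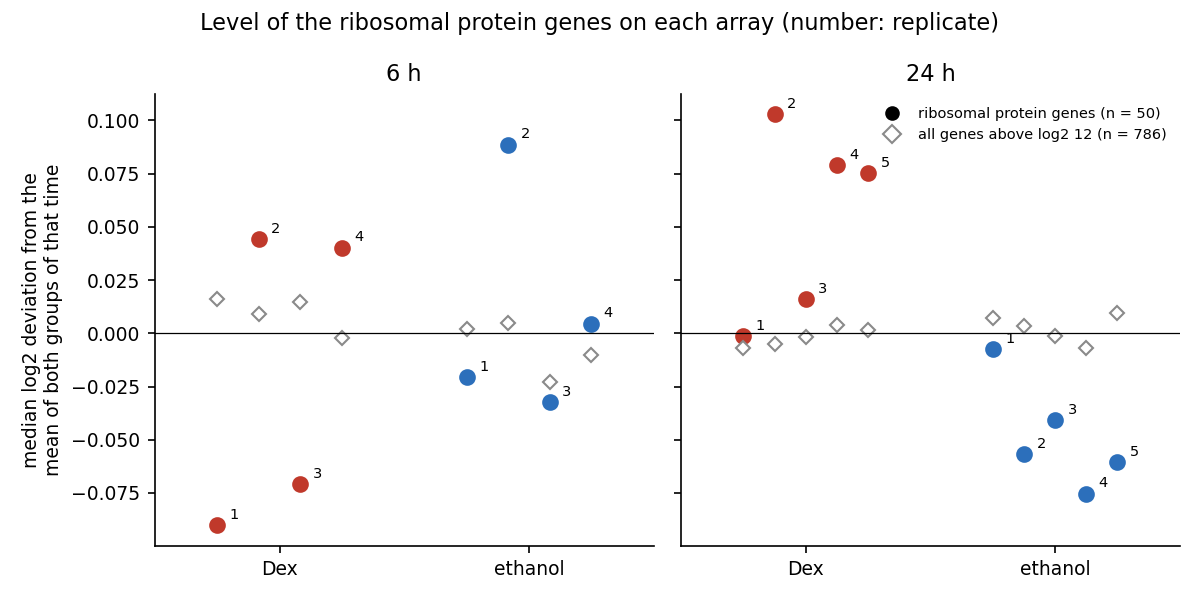
Median log2 deviation from the mean of both groups of a time for each array, at 6 h (left) and 24 h (right), over the 50 members with a mean log2 of 7 or more (filled circles, red for Dex and blue for ethanol, numbered by replicate) and over all 786 genes above a mean log2 of 12 (open diamonds). At 24 h all Dex circles lie above all ethanol circles, from -0.001 to 0.10 against -0.08 to -0.01, while at 6 h they overlap.

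The summed intensity of cycling myoblast markers was 896.5 to 1068 in Dex arrays and 793.5 to 914 in ethanol arrays at 24 h. Of its 5 measured markers Cdk1 was called, higher by 0.43 on the log2 scale, while Top2a (-0.19), Id3 (-0.08), Ccna2 (-0.05) and Myf5 (0.06) did not pass. Cdk1 averaged 510 in Dex and 377 in ethanol arrays. Of the 12 myotube markers 3 were called at 24 h, with Actc1 (0.33) and Ckm (0.30) higher and Myog (-0.32) lower. That is 25%, against 24.2% of the 786 genes above a mean log2 of 12. At 6 h the dim cycling myoblast marker Myf5 was higher (0.328, adjusted p = 0.0175). The myotube marker Tnni1 was lower there (-0.255, adjusted p = 0.0364). Neither call held in the covariate fit (adjusted p = 0.0616 and 0.126). The part of these cells in the members' level was not tested.

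The Dex effects at both times were compared directly by subtracting the effect at 6 h from that at 24 h. The difference was positive in 43 of 59 members (72.9%, against 48.9% of all genes), with a median of 0.14 (all genes -0.004). Among those above a mean log2 of 12, 34 of 42 lay above 0 (81%), against 43.8% of the 786 genes. The difference was called in 4 members, 6.78%, against 4.94% of all genes (2.46% higher and 2.48% lower). Of the members with a mean log2 intensity of 7 or more 8% were called, against 8.51% of all genes of that brightness. Above a mean log2 of 12 the shares were 7.14% and 7.76%, so the calls were near the background. Rps3 (0.40, SE 0.10, adjusted p = 0.0230), Rpl9 (0.34, SE 0.09, adjusted p = 0.0388) and Rps29 (0.31, SE 0.08, adjusted p = 0.0352) had a higher Dex effect at 24 h than at 6 h. Rpl4 had a lower one there (-0.50, SE 0.10, adjusted p = 0.00603). In the covariate fit Rpl4 was called (adjusted p = 0.0409) and Rps3, Rpl9 and Rps29 were not (adjusted p = 0.108, 0.162 and 0.169), against 1.22% of all genes. The calls of Rpl4 and Rps3 held in all 18 fits with 1 array left out, and those of Rpl9 and Rps29 in 8 and 9. The count of 4 was 2 without Dex replicate 1 or 3 or ethanol replicate 2 or 4 at 6 h, or without Dex replicate 2 or 5 or ethanol replicate 2 or 4 at 24 h. It was 7 without Dex replicate 4 or ethanol replicate 1 at 6 h. Of all genes, 3.32% to 4.63% were called in the fits with 2 members, and 5.38% and 5.42% in those with 7.

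Of the members, 28 had a fold change below 0 at 6 h and above 0 at 24 h, 15 lay above 0 at both times, 9 below at both and 7 above and then below. At either time 17 members were called, and Rpl4 was the member called at both. Across the 59 members the fold changes at 6 h and 24 h had a Pearson r of -0.114, a description over genes that share arrays. Rpl7a, lower at 6 h, read 5312 ± 386 in Dex and 5372 ± 257 in ethanol arrays at 24 h (-0.02, adjusted p = 0.886). Rps6, higher at 24 h, read 6819 ± 747 in Dex and 7056 ± 700 in ethanol arrays at 6 h (-0.05, adjusted p = 0.760).

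Several members have a paralogue or a role outside the ribosome. Rpl22, which is needed for T cell development in mice, averaged 3637 ± 27.8 in Dex and 3352 ± 55.8 in ethanol arrays at 6 h, groups that did not overlap although the test was not passed (adjusted p = 0.146). At 24 h it averaged 2838 ± 81.4 in Dex and 2824 ± 91.0 in ethanol arrays. Its paralogue Rpl22l1, outside the symbol rule, read 184 ± 15.4 in Dex and 216 ± 18.4 in ethanol arrays at 6 h (-0.23, adjusted p = 0.0316). At 24 h it read 132 ± 5.56 in Dex and 115 ± 4.46 in ethanol arrays (0.20, adjusted p = 0.0287), and both calls were lost in the covariate fit (adjusted p = 0.131 and 0.108).

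Rps27l, a paralogue of Rps27 and a known p53 target, had a log2 fold change of -0.12 at 6 h and 0.13 at 24 h (adjusted p = 0.395 and 0.200). Rpl13a, known in human cells as part of a complex that silences inflammatory mRNAs, had -0.01 and 0.08 (adjusted p = 0.965 and 0.472). Rpl39 had -0.13 and 0.13 (adjusted p = 0.253 and 0.133), with 20190 ± 747 in Dex and 22100 ± 421 in ethanol arrays at 6 h. Its testis paralogue Rpl39l lay near the array median in every group, at 87.2 ± 3.23 in Dex and 91.7 ± 8.04 in ethanol arrays at 6 h.

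Probes of the same gene gave another reading for 20 members, with 29 further probes. Ribosomal protein genes have many near-identical pseudogenes, so a probe may also take up signal from copies, and which probes do so was not tested. At 24 h 14 of the 17 further probes with a mean log2 of 7 or more had the sign of the probe used, and 18 of all 29 did. At 6 h the sign was shared by 12 of 29, and the probes that differed included bright ones. The other bright probe of Rps12 had -0.122 against 0.0182, and that of Rps9 0.009 against -0.125. The second probes of Rps3 and Rpl30 shared the sign at 6 h.

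The second probe of Rpl30 read 361 in Dex and 281 in ethanol arrays on average at 24 h, a log2 fold change of 0.36 (SE 0.07, adjusted p = 0.00115 over all probes). The second probe of Rps3 read 2193 in Dex and 3160 in ethanol arrays at 6 h, a log2 fold change of -0.54 (SE 0.11, adjusted p = 0.00289). Both fold changes were larger in size than those of the brighter probes, a difference that was not tested. The second probe of Rpl4 was dim, at 74.6 in Dex and 84.8 in ethanol arrays at 24 h (-0.18), and had -0.08 at 6 h, where the bright probe was higher with Dex.

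The dim second probe of Rplp0 ran against the bright one at 24 h, with 81.2 in Dex and 92.6 in ethanol arrays (-0.19, SE 0.06, adjusted p = 0.0313). That of Rps19 was also dim and had 0.02. Rps12 had another bright probe at 0.09 (adjusted p = 0.235), and Rpl31 had further probes at 0.14 and -0.01.

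**Figure D5:**
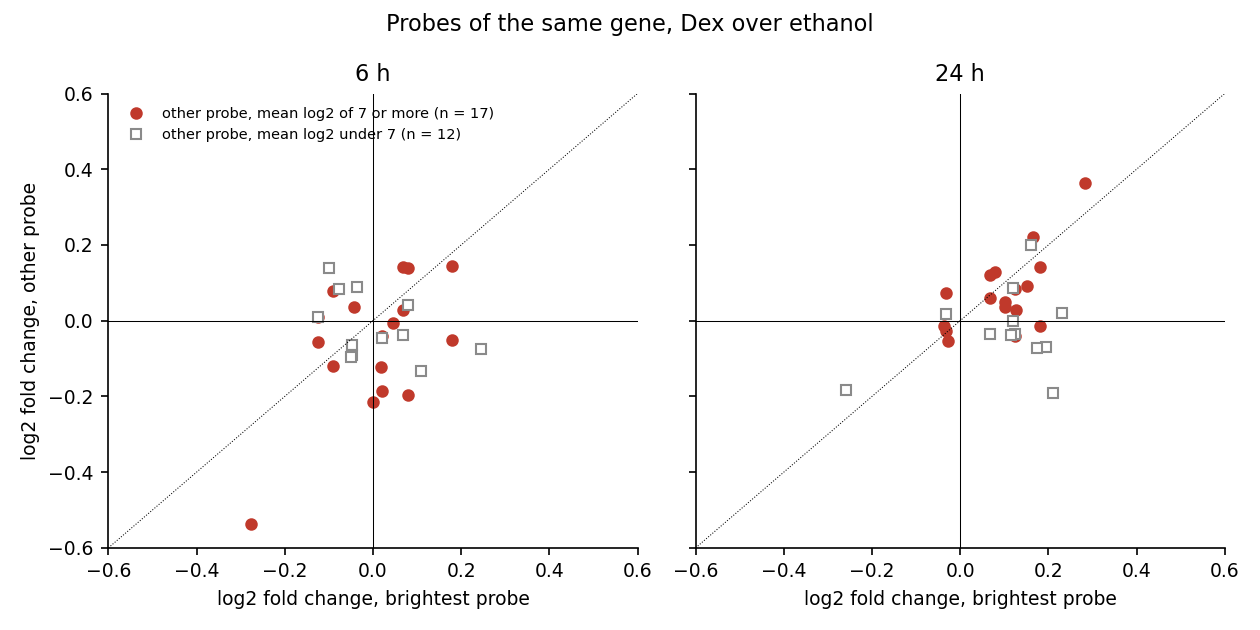
Log2 fold change, Dex over ethanol, of each of the 29 further probes (vertical axis) against that of the brightest probe of the same member (horizontal axis), at 6 h (left) and 24 h (right). Filled circles are the 17 further probes with a mean log2 intensity of 7 or more, open squares the 12 dimmer ones, and the dotted line marks equal values. At 24 h 14 of the 17 circles have the sign of the brightest probe.

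Rps3a1, the mouse gene of the small-subunit protein S3a, has a symbol that falls outside the rule and was looked at after its values were seen. It averaged 654 ± 30.3 in Dex and 985 ± 121 in ethanol arrays at 6 h (SD, n = 4 each). Its log2 fold change was -0.58 (SE 0.08, adjusted p = 2.88e-05) there. At 24 h it averaged 634 ± 61.7 in Dex and 484 ± 33.0 in ethanol arrays (SD, n = 5 each), at 0.39 (SE 0.07, adjusted p = 0.000663). Both calls held in the covariate fit (adjusted p = 0.000319 and 0.0045). These fold changes are larger in size than those of any of the 59 members, and no test across genes was made. Of the list of other cytosolic ribosomal proteins, 3 had a probe under their symbol, and Rpl7l1 (-0.02 and -0.02) and Rpl36al (-0.16 and 0.09) did not pass at 6 h or 24 h.

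TOP tracts are also found in genes of translation factors and a few others. Of 18 such genes outside the ribosome, 0 were called higher and 1 lower at 6 h (5.56%, against 9.06% of all genes), with a median of -0.008. At 24 h 3 were called higher and 1 lower (22.2%, against 16.5% of all genes), with a median of 0.05. Of the 17 with a mean log2 intensity of 7 or more, 5.88% were called at 6 h and 23.5% at 24 h. Of all genes of that brightness 16.8% and 27.2% were called. At 24 h the elongation factor subunit Eef1d (0.25, adjusted p = 0.00555), Tpt1, which encodes the tumour protein TCTP (0.23, adjusted p = 0.0304), and the initiation factor subunit Eif3h (0.18, adjusted p = 0.0469) were higher. The histone chaperone Nap1l1 was lower (-0.23, adjusted p = 0.0298). Eif3h was the gene lower at 6 h (-0.28, adjusted p = 0.00881). In the covariate fit Eef1d kept its call (adjusted p = 0.0355) and the others did not.

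Ribosome assembly takes place in the nucleolus and needs RNA polymerase I and many assembly factors. Of 47 such genes, 7 were called higher and 2 lower at 6 h, 19.1% against 9.06% of all genes, and 11 higher and 4 lower at 24 h, 31.9% against 16.5%. Most of these genes were bright, and of the 39 with a mean log2 intensity of 7 or more 23.1% were called at 6 h and 35.9% at 24 h, against 16.8% and 27.2% of all genes of that brightness. At 6 h Wdr43 and Heatr1, factors of the small-subunit processome, were higher by 0.50 (SE 0.06, adjusted p = 5.01e-06) and 0.40 (SE 0.06, adjusted p = 3.94e-05). The snoRNP protein Nop56 (0.32, adjusted p = 0.00372) was higher too. Rpf2, which helps load the RNA and proteins of the 5S particle, was lower (-0.33, adjusted p = 0.0019).

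At 24 h nucleostemin (Gnl3, 0.33, adjusted p = 0.00032) and the polymerase I factor Taf1d (0.33, adjusted p = 0.0011) were higher. Wdr43 was higher again (0.22, adjusted p = 0.00908). Pes1, which acts in large-subunit maturation, was lower (-0.52, adjusted p = 0.000741) and averaged 560 in Dex and 796 in ethanol arrays. In the covariate fit 5 of the 47 genes of the list were called at 6 h and 5 at 24 h. Of all genes it called 4.46% at 6 h and 8.89% at 24 h.

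Of 18 measured regulators of ribosomal protein genes and TOP translation, 3 were higher and 0 lower at each time. These 16.7% stand against 9.06% of all genes at 6 h and 16.5% at 24 h, so that the share at 24 h is that of the background. Of the 12 with a mean log2 intensity of 7 or more 25% were called at each time. Of all genes of that brightness 16.8% were called at 6 h and 27.2% at 24 h. At 6 h the 3 were the mTORC1 inhibitors Ddit4 (1.84, adjusted p = 2.98e-08) and Sesn1 (1.32, adjusted p = 7.91e-10), and the kinase gene Mtor (0.54, adjusted p = 5.04e-06). At 24 h they were Ddit4 (1.56), Sesn1 (1.46) and Eif4ebp2, which encodes a repressor of cap-dependent translation (0.70, adjusted p = 0.00026). Ddit4 averaged 1857 in Dex and 512 in ethanol arrays at 6 h. Larp1, the TOP-binding protein, had -0.13 and -0.12 at 6 h and 24 h (adjusted p = 0.514 and 0.408). The ETS factor gene Gabpa had 0.06 at both times (adjusted p = 0.647 and 0.550).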

How the data were processed

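RNA of 18 C2C12 myotube samples was measured on Illumina mouse WG-6 bead arrays, 1 array a sample. Each deposited value is a probe's intensity on a linear scale, which the authors obtained using lumi, per the submitters' processing notes. How lumi was set (version, background correction, normalization) is not given in the sources used here, and the design text names limma for the authors' tests. The design here assumed log2 values, so the intensities were put on the log2 scale with a pseudocount of 0. No detection p-values were used, and the number of arrays limits the precision.

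The platform annotation gave 1 gene symbol for 34885 of 45281 probes, several for 18 and none for 10378. Through gene identifiers, 34807 symbols were brought to GRCm38.p6, and 78 were kept. The brightest probe of each gene gave 19057 genes.

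All 18 arrays entered 1 linear model with 4 group means (lmFit and eBayes, limma 3.58.1, R 4.3.3). The code was tried on simulated arrays with independent noise. That trial cannot show how calls behave under the dependence between arrays seen here. Genes with a Benjamini-Hochberg adjusted p under 0.05 over all genes were called. The SE of a log2 fold change comes from the model. Adjusted p-values of single probes were taken over all probes. A direction among the arrays of a time counted as missing when it held under 0.01% of the spread. Samples were grouped by their titles. Replicate numbers were not used as pairs, because not every pair of same-numbered arrays had deviations correlated above 0.1 (r from -0.0797 to 0.256 at 6 h). At 24 h the numbers tied the arrays in opposite ways (r from -0.928 to -0.19).

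The members and gene lists were chosen with earlier results of these data known, so no set test was made. Members named in the text are up to 14 called members of smallest p per Dex comparison, up to 6 in the interaction, the 2 nearest to the threshold on either side, and a list of paralogues and members with roles outside the ribosome. Of each gene list the text names up to 4 called genes a comparison. Uncalled members with groups apart at 6 h, Rps3a1, Rpl36al, marker genes, and Gabpa and Larp1 as uncalled regulators are named beyond this rule. Uncalled members with groups apart at 24 h are counted but not all named. Alternatives changed the normalization, background, pseudocount, filter, probe summary, array weights, covariates, samples fitted, replicate block and single arrays.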

Additional observations from a re-analysis of the deposited data

Results flagged for a closer look

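In 3 of 120 groups of named members (2.5%, where chance gives about 1 in 20) a single array stood far from the others of its group. All 3 were Dex groups at 24 h. Rpl30 read 2446.9 in Dex replicate 5, and the nearest Dex array read 2229.2. Rpl39 read 21986.8 in Dex replicate 1, with the nearest at 19444. Rplp1 read 34285.1 in Dex replicate 2, with the nearest at 29588.2. They lie on different arrays.

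In 4 members the Dex effect at 24 h differed from that at 6 h by the test of the difference itself (limma, adjusted over all genes). The difference was 0.404 for Rps3, 0.34 for Rpl9, 0.311 for Rps29 and -0.504 for Rpl4.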

How the results depend on the processing

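No called result changed its direction under any alternative run. The medians of the members kept their sign in every fit, from -0.0638 to -0.00917 at 6 h and from 0.0912 to 0.106 at 24 h with 1 array left out, and averaging a gene's probes gave 0.0621 at 24 h. Counts of calls depended on the processing, for members and for all genes. Leaving out 1 array called 6.5% to 9.59% of all genes at 6 h, 12.4% to 17.4% at 24 h and 3.32% to 5.42% in the difference. Of the members it called 2 to 6 at 6 h, 6 to 15 at 24 h and 2 to 7 in the difference between times. For the gene lists it gave, at 6 h and at 24 h, 0 to 1 and 0 to 1 (other cytosolic ribosomal proteins), 1 to 2 and 1 to 4 (TOP mRNAs), 5 to 11 and 9 to 16 (assembly), and 3 to 4 and 3 (regulators). With the missing directions of spread as covariates, the members called numbered 1 at 6 h, 3 at 24 h and 1 in the difference. Of all genes that fit called 4.46%, 8.89% and 1.22%. The lists then gave 0 and 0 (other cytosolic ribosomal proteins), 0 and 1 (TOP mRNAs) and 5 and 5 (assembly) at 6 h and 24 h. With the replicate block there were 3 members at 6 h, 7 at 24 h and 3 in the difference, and 6.4%, 11.8% and 2.79% of all genes. The block also gave 0 and 0 other cytosolic ribosomal proteins and, at 24 h, 2 TOP genes. At 24 h same-numbered arrays deviated in opposite ways. The model without this block leaves that out, so its p-values at 24 h may be too small. Each time fitted alone gave 1 member at 6 h and 21 at 24 h, with 4.76% and 22% of all genes called. Array weights gave 1 and 22 members, with 5.66% and 29.1% of all genes called. Either gave 0 other cytosolic ribosomal proteins at 6 h, and each time fitted alone gave 0 TOP and 5 assembly genes there. Normexp gave 2 members at 6 h and 2 in the difference, with 9.44% and 4.43% of all genes called. A pseudocount of 50 gave 2 TOP genes at 6 h, and averaging a gene's probes 0 TOP and 5 assembly genes. Without both arrays numbered 1 at 24 h there were 3 members at 6 h (8.46% of all genes) and 2 TOP genes at 24 h. Quantile normalization and centring left the counts at 6 h and in the difference at 5 and 4. At 24 h they gave 10 and 12, with 16.6% and 16.4% of all genes called. The calls of Rpl7a at 6 h, of Rps29 and Rpl3l at 24 h and of Rpl4 in the difference held under every alternative run. Over all alternatives the named genes' results were on the same side of the threshold in 2351 cases, newly called in 42 and no longer called in 181. Some fits leave fewer arrays or degrees of freedom, and why a count moved was not tested.

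The limits are these. Fold changes of the members were small, within 0.32 on the log2 scale at either time. The normalization is unknown, and most calls were lost when the missing directions of spread were counted. Dim probes were not shown to lie above background, bright ones may have been near saturation, and probes may share signal with pseudogenes. No protein, rRNA or translation measurement was used here.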
